A study of Mus musculus with 6 samples.

Results

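The genes described here are 36 markers of the cells that make up brain blood vessels: endothelial cells, their barrier and transport proteins, pericytes and vascular smooth muscle. They are all the rows of the deposited table whose symbol is on that list, 36 of 31838 genes, and each symbol matched 1 row. They were measured in polyadenylated RNA of the hippocampus of wild type C57BL/6 mice aged 4 months. The BBP group (3 libraries) had received butyl benzyl phthalate, a plasticiser, at 50 mg/kg/day, and the corn oil group (3 libraries) is its control. How the agent was given, for how long, and whether each library is 1 animal are not stated in the sources used here, so p-values here cover only how far these libraries spread, which may be technical.

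Capillaries of the brain are lined by endothelial cells joined by tight junctions. These cells carry transporters that bring in glucose and lipids and pump drugs out, and so form the blood-brain barrier. Pericytes wrap the capillaries and depend on endothelial PDGF signals, and ring-shaped smooth muscle cells surround arterioles. VEGF and angiopoietin receptors on the endothelium control vessel growth and stability.

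All 36 genes passed the filter on low counts. Their levels, averaged over the 6 libraries, ran from 0.351 FPKM (fragments per unit of transcript length and of sequencing depth) for Des to 185 FPKM for Bsg, and 29 of them were at 1 FPKM or more. In single libraries they had 52 to 27573 deposited counts. Only Higd1b, Cd248, Tagln and Des had fewer than 200 counts in any library. In bulk tissue, fewer vascular cells and less RNA per cell cannot be told apart.

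Total deposited counts were 62477604 to 67270275 in the BBP libraries and 62747522 to 68422361 in the corn oil libraries. The BBP libraries stood further apart than the controls. Pearson's r over tested genes, on log2(FPKM + 1), was 0.982 to 0.988 among BBP libraries and 0.993 to 0.995 among corn oil libraries. In BBP library 1, 12 striatum markers stood a median of 1.68 above the corn oil mean on the log2 scale, and 12 hippocampal neuron markers stood at -0.92. BBP library 2 had 11.5% of its counts on mitochondrially encoded genes (95% Wilson interval 11.45% to 11.47%, counting error only), against 7.11% to 8.57% in the other 5 libraries. Hippocampal neuron markers were present in every library, but at lower levels in BBP library 1 for most: Prox1, a dentate gyrus marker, had 3.71, 10.8 and 9.31 FPKM in BBP libraries 1 to 3, against 7.67, 8.69 and 5.32 FPKM in corn oil libraries 1 to 3.

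The 36 genes leaned slightly higher in BBP, as did markers of some other cells, and no single gene passed the test. Of the 36 genes, 28 (77.8%) had a positive log2 fold change of BBP over corn oil, beside 52.4% of all 20428 tested genes. Their median was 0.16, beside 0.01 over all tested genes. Some lists of markers outside the vessels leaned the same way. Positive were 10 of 10 oligodendrocyte markers (median 0.33), 9 of 9 astrocyte markers (0.11) and 8 of 10 microglia markers (0.05). All 9 tested genes of an isocortex list that also held the immunoglobulin gene Ighm were positive too (0.50). Larger medians were those of the striatum markers, 12 of 12 positive (0.64), and of 5 tested blood leukocyte markers, all positive (1.19). All 6 tested erythrocyte markers were positive as well (0.52). Relative to the corn oil mean, the isocortex medians were 1.22, 0.32 and -0.12 in BBP libraries 1 to 3. The striatum medians were 1.68, -0.08 and -0.44 in the same libraries. Other lists did not lean upward: 6 of 12 fibroblast and meningeal markers were positive (0.03), 4 of 12 hippocampal neuron markers (-0.07) and 1 of 14 choroid plexus markers (-0.52). In edgeR's quasi-likelihood test 0 of the 36 had an adjusted p under 0.05, as did 0% of all tested genes, and the smallest adjusted p among them was 0.953. At an unadjusted p under 0.05, 4 genes (11.1%) were higher, namely Flt1, Robo4, Abcb1a and Abcc9, beside 1.98% of all tested genes, and 0 were lower, beside 1.37%. DESeq2 also called 0 of the 36 and had 5 at an unadjusted p under 0.05, beside 829 of all 31838 genes. For 7 genes (19.4%) all 3 BBP values lay above all 3 corn oil values in FPKM, beside 4.4% of all tested genes, and for 0 genes they lay below, beside 5.25%. These 7 were Flt1, Robo4, Pecam1, Cdh5, Abcc9, Pdgfrb and Notch3. The 95% interval stayed between -1 and 1 on the log2 scale for 32 of the 36 genes, beside 69.9% of all tested genes. The exceptions among the 36 were Abcc9, Higd1b, Tagln and Myh11. Without BBP library 1, 27 genes were positive with a median of 0.12, and without BBP library 2, 32 were positive with a median of 0.21.

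**Figure D1:**
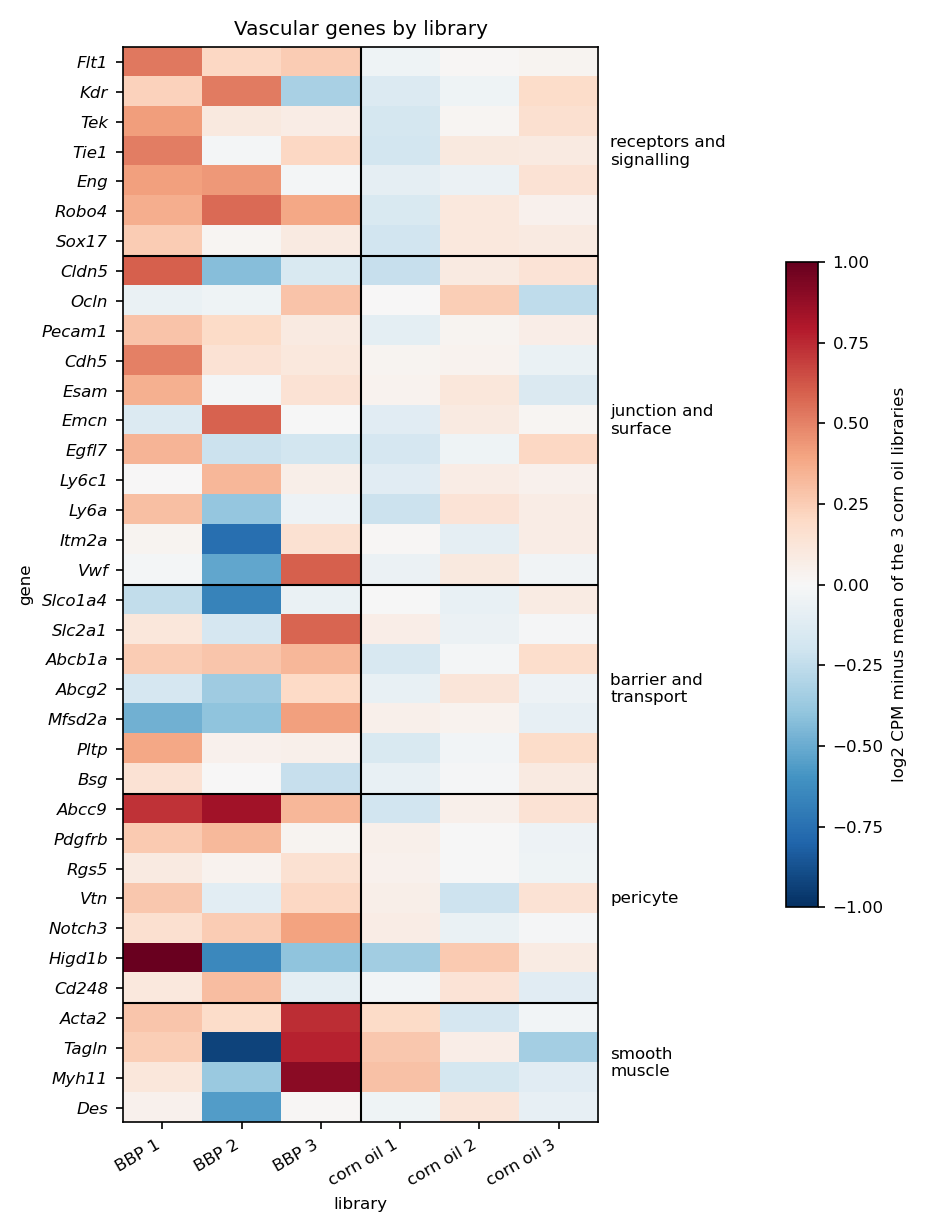
Each row is 1 vascular gene, each column 1 library, and the colour is log2 CPM minus the mean of the 3 corn oil libraries (scale from -1 to 1). BBP library 1 is red for most endothelial receptors, BBP library 2 is blue for Itm2a, Slco1a4 and Tagln, and BBP library 3 is red for Acta2, Tagln, Myh11 and Slc2a1 but not for Des.

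The 3 treated libraries differed in which vascular genes were high. Relative to the corn oil mean, in log2 CPM, 30, 19 and 26 of the 36 genes were above it in BBP libraries 1 to 3, against 13, 21 and 21 in corn oil libraries 1 to 3. Over all tested genes these shares were 50.5% to 51.7% in every library. The median of the 36 genes stood at 0.25, 0.01 and 0.13 in BBP libraries 1 to 3, against -0.06, 0.03 and 0.05 in corn oil libraries 1 to 3. BBP library 1 had the highest FPKM for 16 genes (44.4%, beside 24.3% of all tested genes) and BBP library 3 for 12 (33.3%, beside 21.2%). BBP library 2 had the lowest for 14 genes (38.9%), close to its 36.4% of all tested genes. Corn oil library 1 had the lowest for 11 genes (30.6%), beside 13.3% of all tested genes. The coefficient of variation was larger in BBP for 34 of the 36 genes, and for 72.4% of all tested genes, with a median over the 36 of 17.7% in BBP and 9.10% in corn oil. Over all tested genes the medians were close to these, 17.9% in BBP and 10.05% in corn oil.

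The endothelial receptors and signalling genes were Flt1 and Kdr (VEGF receptors), Tek and Tie1 (the angiopoietin receptor and its partner), Eng (endoglin, a co-receptor for TGF-beta family ligands), Robo4 (an endothelial roundabout receptor) and Sox17 (a transcription factor of arterial endothelium). All 7 leaned upward, with a median log2 fold change of 0.24. Flt1 (ENSMUSG00000029648, mm10 chromosome 5, 147561604 to 147726011, minus strand) had 3.35, 2.49 and 2.80 FPKM in BBP libraries 1 to 3, against 2.24, 2.33 and 2.36 FPKM in corn oil libraries 1 to 3. Every BBP value lay above every corn oil value, and BBP library 1 was the highest. Its log2 fold change was 0.34 ± 0.11 (SE; 95% interval 0.09 to 0.58, unadjusted p = 0.0124, adjusted p = 0.953, edgeR).

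Robo4 (ENSMUSG00000032125, chromosome 9, 37401897 to 37415115, plus strand) had 1.24, 1.32 and 1.27 FPKM in BBP libraries 1 to 3, against 0.854, 1.02 and 0.987 FPKM in corn oil libraries 1 to 3. The BBP values lay close together and above all corn oil values, and the gene was 1 of only 2 among the 36 whose coefficient of variation was smaller in BBP (3.16%) than in corn oil (9.40%). The other was Abcb1a. The log2 fold change of Robo4 was 0.44 ± 0.15 (SE, unadjusted p = 0.0196, adjusted p = 0.953, edgeR). Eng, the most abundant receptor gene per length here, had 5.74, 5.42 and 4.31 FPKM in BBP libraries 1 to 3, against 4.03, 4.11 and 4.77 FPKM in corn oil libraries 1 to 3. BBP library 3 lay within the corn oil range, so the groups overlapped (log2 fold change 0.29 ± 0.15, SE). Kdr, Tek, Tie1 and Sox17 had log2 fold changes of 0.12 to 0.24 with overlapping groups.

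**Figure D2:**
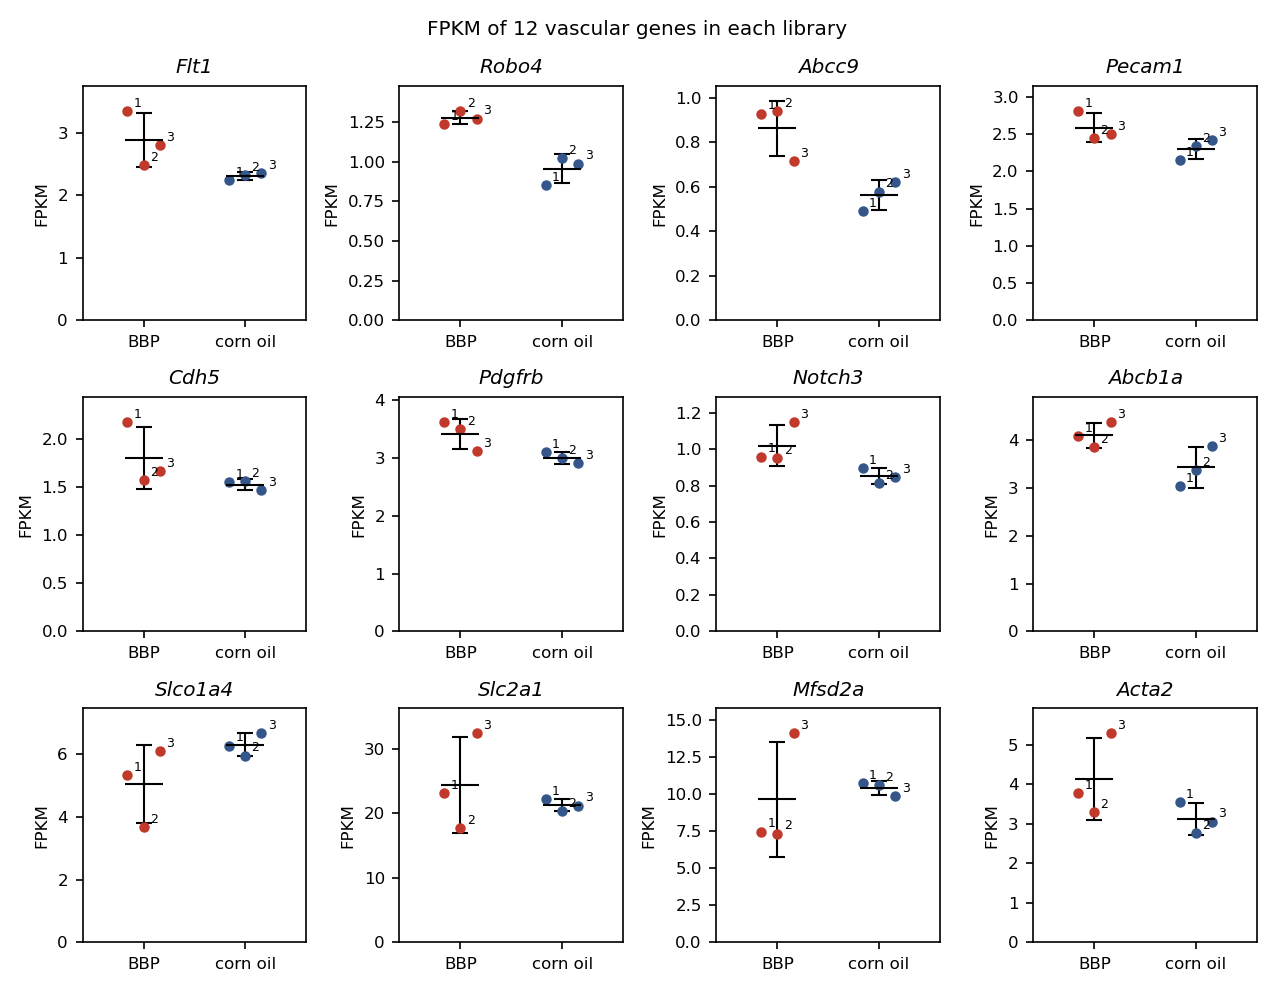
FPKM of 12 vascular genes by group, with 1 point per library (numbered by replicate), a black bar at the mean and error bars of 1 SD (n = 3 per group). The BBP points of Flt1, Robo4, Abcc9, Pecam1, Cdh5, Pdgfrb and Notch3 lie above all corn oil points, while Slc2a1 and Mfsd2a are high in BBP library 3 only.

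Genes of endothelial junctions and of the cell surface were split. Of the 11, 8 were positive and 3 negative (median log2 fold change 0.09), and 0 had an unadjusted p under 0.05. Pecam1 and Cdh5 were the 2 whose groups did not overlap, 2 of 11, beside 4.4% of all tested genes. Pecam1 (CD31) had 2.81, 2.45 and 2.498 FPKM in BBP libraries 1 to 3, against 2.15, 2.34 and 2.42 FPKM in corn oil libraries 1 to 3. Cdh5, the VE-cadherin of adherens junctions, had 2.18, 1.58 and 1.67 FPKM in BBP libraries 1 to 3, against 1.56, 1.56 and 1.47 FPKM in corn oil libraries 1 to 3. For both genes the lowest BBP value was above the highest corn oil value by a narrow margin, and BBP library 1 was the highest. Their log2 fold changes were 0.19 ± 0.11 and 0.26 ± 0.16 (SE), with unadjusted p of 0.119 and 0.133 in edgeR.

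The tight junction genes among the 36 overlapped between groups. Cldn5, the main claudin of the barrier, had 20.6, 9.40 and 12.4 FPKM in BBP libraries 1 to 3, against 11.5, 14.4 and 15.0 FPKM in corn oil libraries 1 to 3. BBP held both the highest and the lowest value of the 6. Its log2 fold change was 0.07 ± 0.25 (SE) with a 95% interval of -0.51 to 0.64, and it was -0.29 without BBP library 1. Of tight junction genes outside the 36, Tjp1 (ZO-1) had 9.29, 8.51 and 9.43 FPKM in BBP libraries 1 to 3, against 8.15, 8.47 and 8.48 FPKM in corn oil libraries 1 to 3, a narrow separation. Ocln (occludin), another tight junction gene, averaged 1.99 ± 0.347 FPKM in BBP and 1.94 ± 0.333 FPKM in corn oil (SD, n = 3 each).

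Ly6c1, a surface antigen gene, was the most abundant of this role per length, with 21.8, 25.5 and 23.0 FPKM in BBP libraries 1 to 3, against 19.95, 22.7 and 22.5 FPKM in corn oil libraries 1 to 3. The groups overlapped, and its level is uncertain, because 15.3% of the 100-base windows of its longest transcript also stand in another gene's transcript, above all Ly6c2. Itm2a, a membrane protein gene (chosen after its values were seen), had 21.3, 11.5 and 23.6 FPKM in BBP libraries 1 to 3, against 21.01, 19.6 and 22.0 FPKM in corn oil libraries 1 to 3. BBP library 2 alone was low. Vwf (von Willebrand factor) had its lowest value, 0.469 FPKM, in BBP library 2 and its highest, 1.11 FPKM, in BBP library 3, with 0.695 to 0.771 FPKM in corn oil libraries. Esam, an endothelial adhesion molecule, and Emcn, the sialomucin endomucin, had log2 fold changes of 0.17 and 0.18, and Egfl7, a secreted endothelial factor, and Ly6a, the surface antigen Sca-1, had -0.01 and -0.03, all with overlapping groups.

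Barrier and transport genes showed no shared direction: 3 of 7 were positive and 4 negative, with a median log2 fold change of -0.02. Abcb1a, the efflux pump P-glycoprotein, had 4.09, 3.87 and 4.38 FPKM in BBP libraries 1 to 3, against 3.05, 3.37 and 3.89 FPKM in corn oil libraries 1 to 3. Corn oil library 3 lay just above the lowest BBP value, so the groups overlapped at that point only. The log2 fold change was 0.28 ± 0.11 (SE, unadjusted p = 0.0382, adjusted p = 0.953, edgeR), and it was 0.20 to 0.38 when any 1 library was left out. Part of its level is uncertain, since 7.72% of its 100-base windows are shared, mostly with the paralogue Abcb1b.

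Slco1a4, an organic anion transporter, was the member with the most negative fold change. It had 5.34, 3.69 and 6.11 FPKM in BBP libraries 1 to 3, against 6.28, 5.96 and 6.68 FPKM in corn oil libraries 1 to 3. BBP libraries 1 and 2 lay below all corn oil values and BBP library 3 within them (log2 fold change -0.31 ± 0.15, SE, unadjusted p = 0.0710, edgeR). Mfsd2a, the lipid carrier that restrains transcytosis in brain endothelium, showed the same 2 libraries low, with 7.47, 7.35 and 14.1 FPKM in BBP libraries 1 to 3, against 10.8, 10.6 and 9.85 FPKM in corn oil libraries 1 to 3. No BBP value fell inside the narrow corn oil range, as BBP library 3 was the highest of the 6. Slc2a1, the glucose transporter GLUT1, was also highest in BBP library 3, at 23.1, 17.7 and 32.4 FPKM in BBP libraries 1 to 3, against 22.3, 20.4 and 21.2 FPKM in corn oil libraries 1 to 3. Its log2 fold change was 0.21 ± 0.17 (SE) with all libraries and -0.02 without BBP library 3.

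Mfsd2a and Slc2a1 were chosen here after their values were seen. Bsg (basigin), which is also made by neurons and other cells, was the most abundant of the 36 at 208, 175 and 163 FPKM in BBP libraries 1 to 3, against 178, 185 and 200 FPKM in corn oil libraries 1 to 3. Its groups overlapped (log2 fold change -0.02 ± 0.11, SE, 95% interval -0.27 to 0.23). Abcg2, another efflux pump, averaged 1.99 ± 0.474 FPKM in BBP and 2.14 ± 0.1599 FPKM in corn oil, and Pltp, a phospholipid transfer protein, averaged 19.6 ± 3.22 FPKM in BBP and 17.8 ± 2.18 FPKM in corn oil (SD, n = 3 each). In Pltp, 19.3% of exon bases overlap Ctsa on the opposite strand, which makes its level uncertain.

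Pericyte genes were all positive, 7 of 7, with a median log2 fold change of 0.15. Abcc9, which encodes the SUR2 subunit of an ATP-sensitive potassium channel, had the largest fold change of the 36. It had 0.929, 0.940 and 0.717 FPKM in BBP libraries 1 to 3, against 0.489, 0.578 and 0.620 FPKM in corn oil libraries 1 to 3, from 444 to 552 counts in BBP and 288 to 396 counts in corn oil. All BBP values lay above all corn oil values, with BBP library 3 nearest to them. Abcc9 (ENSMUSG00000030249, chromosome 6, 142587862 to 142702315, minus strand) was 1.56-fold higher, or 0.64 ± 0.19 in log2 (SE; 95% interval 0.22 to 1.07, unadjusted p = 0.00815, adjusted p = 0.953, edgeR). Leaving out any 1 library gave 0.53 to 0.78.

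Pdgfrb, the PDGF receptor that pericytes need to be recruited and kept on capillaries, had 3.61, 3.50 and 3.12 FPKM in BBP libraries 1 to 3, against 3.10, 2.99 and 2.90 FPKM in corn oil libraries 1 to 3. Notch3, a Notch receptor of mural cells, had 0.959, 0.951 and 1.15 FPKM in BBP libraries 1 to 3, against 0.898, 0.813 and 0.848 FPKM in corn oil libraries 1 to 3. In both genes the BBP values lay above all corn oil values, with BBP library 3 nearest for Pdgfrb and BBP library 2 for Notch3. The log2 fold changes were 0.21 ± 0.11 and 0.28 ± 0.14 (SE), with unadjusted p of 0.0989 and 0.0740 in edgeR.

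Other pericyte genes were closer to no difference or varied widely. Vtn (vitronectin), the most abundant pericyte gene per length, had 28.8, 20.7 and 28.0 FPKM in BBP libraries 1 to 3, against 24.9, 20.6 and 26.6 FPKM in corn oil libraries 1 to 3, with overlapping groups. Rgs5, a regulator of G-protein signalling, had the smallest standard error of the 36, with a log2 fold change of 0.09 ± 0.08 (SE, 95% interval -0.08 to 0.27). Higd1b, a small mitochondrial protein gene, had 179, 52 and 71 counts in BBP libraries 1 to 3, against 69, 106 and 102 counts in corn oil libraries 1 to 3. Its BBP values enclosed all corn oil values, and its coefficient of variation in BBP, 69.8%, was the largest among the 36. Cd248 (endosialin) had a log2 fold change of 0.11 ± 0.19 (SE).

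**Figure D3:**
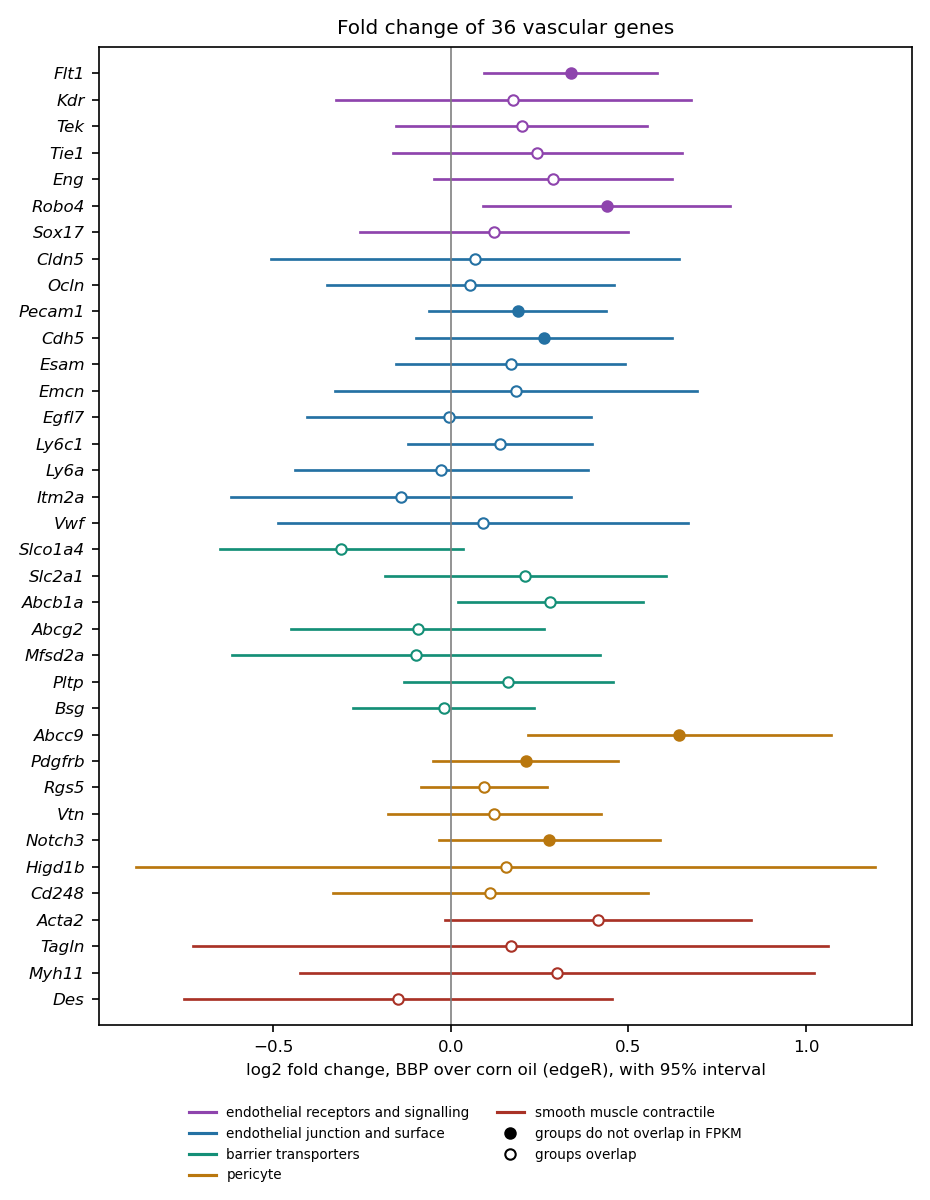
Log2 fold change of BBP over corn oil from edgeR for the 36 genes, with 95% intervals (n = 3 libraries per group). Colours mark the roles, and filled points mark the 7 genes whose groups do not overlap in FPKM. The intervals of Flt1, Robo4, Abcb1a and Abcc9 lie above 0, before any adjustment for the number of genes.

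The contractile genes of smooth muscle followed single libraries. Acta2, smooth muscle actin, had 3.78, 3.30 and 5.29 FPKM in BBP libraries 1 to 3, against 3.56, 2.77 and 3.05 FPKM in corn oil libraries 1 to 3. Myh11, the smooth muscle myosin heavy chain, had 0.715, 0.472 and 1.26 FPKM in BBP libraries 1 to 3, against 0.807, 0.581 and 0.609 FPKM in corn oil libraries 1 to 3. Tagln (transgelin, chosen after its values were seen) had 2.13, 0.865 and 3.12 FPKM in BBP libraries 1 to 3, against 2.15, 1.88 and 1.42 FPKM in corn oil libraries 1 to 3. BBP library 3 was the highest of the 6 for all 3 genes, and BBP library 2 the lowest for Myh11 and Tagln. Fold changes were 0.42 ± 0.19 for Acta2, 0.30 ± 0.32 for Myh11 and 0.17 ± 0.39 for Tagln (log2, SE), with unadjusted p of 0.0568, 0.370 and 0.676 in edgeR, and those of Myh11 and Tagln were -0.12 and -0.25 without BBP library 3. Des (desmin) had 0.379, 0.234 and 0.382 FPKM in BBP libraries 1 to 3, against 0.355, 0.405 and 0.351 FPKM in corn oil libraries 1 to 3. For Tagln, 67.9% of exon bases overlap other genes on the opposite strand, Pcsk7 among them.

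The fibroblast and meningeal markers ranked the BBP libraries as the smooth muscle genes did, with library 3 highest and library 2 lowest. So did the barrier and transport genes, with medians of 0.11, -0.17 and 0.20 in BBP libraries 1 to 3. The same order held for the lists of endothelial transcription factors, basement membrane genes and other mural genes, but not for the remaining vascular lists. Relative to the corn oil mean, the smooth muscle median was 0.18, -0.47 and 0.75 in BBP libraries 1 to 3, against 0.23, -0.05 and -0.10 in corn oil libraries 1 to 3. The median of 12 fibroblast and meningeal markers was -0.04, -0.66 and 0.56 in the same libraries, against 0.06, -0.20 and 0.14 in corn oil libraries 1 to 3. Summed, those markers stood at 21.7 to 44.1 FPKM in BBP libraries and 28.8 to 37.7 FPKM in corn oil libraries. Haemoglobin and other erythrocyte markers, had a summed level of 246, 269 and 399 FPKM in BBP libraries 1 to 3, against 170, 276 and 200 FPKM in corn oil libraries 1 to 3. Of 14 blood leukocyte markers 5 passed the filter, and BBP library 1 was high for 2 of them above all: Ighm at 18.7 FPKM, against 3.73 to 8.85 FPKM in the other 5 libraries, and Trbc2 at 13.6 FPKM, against 0.217 to 0.751 FPKM. The defining markers Cd3e, Cd3d, Cd8a, Ms4a1, Ly6g and S100a8 were at 0 in that library. Among choroid plexus markers Ttr, the most abundant, was lower in all 3 BBP libraries, at 44.5 to 58.5 FPKM, against 81.4 to 366 FPKM in corn oil libraries. Of the 14 markers, 13 had a negative log2 fold change (median -0.52). Without overlap, 3 of them were lower, beside 5.25% of all tested genes. The medians of the 14 markers by library overlapped, at -0.65, -0.12 and -0.47 in BBP libraries 1 to 3, against -0.53, -0.21 and 0.67 in corn oil libraries 1 to 3. Corn oil library 3 was the highest. The part of meningeal, blood or regional tissue in the vascular values was not tested.

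**Figure D4:**
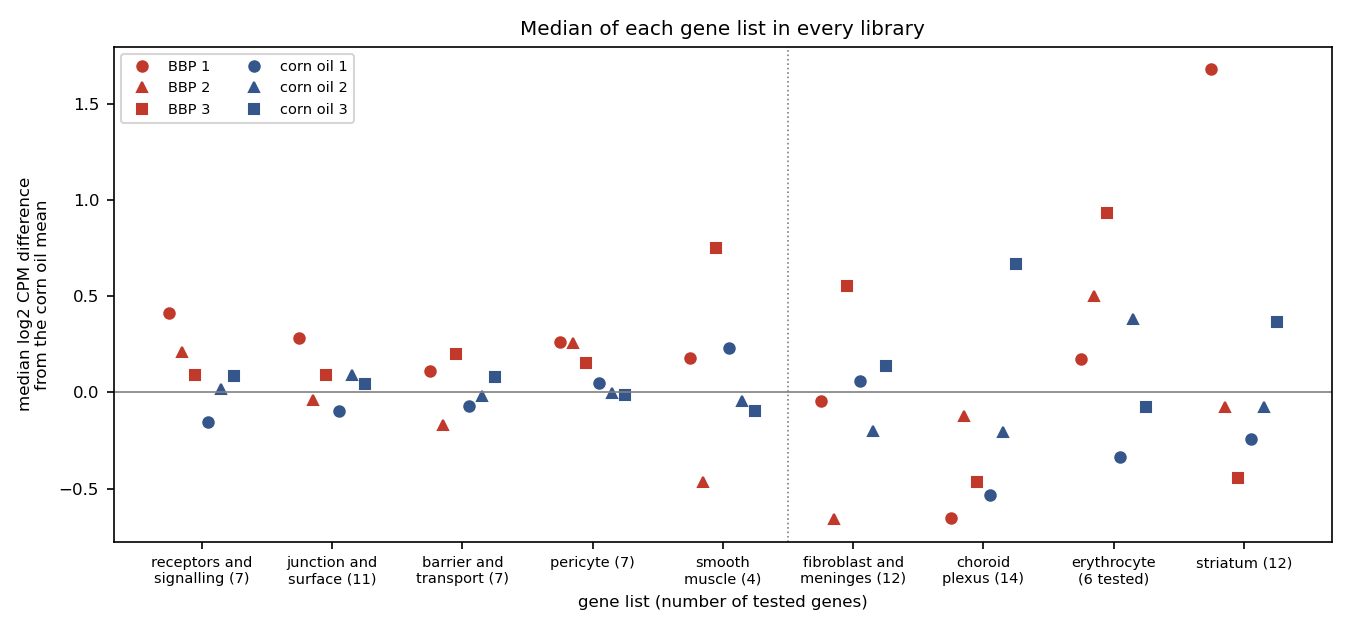
Median difference in log2 CPM from the corn oil mean for the 5 vascular roles (left of the dotted line) and for 4 lists of other cells or regions, with 1 symbol per library. Smooth muscle, barrier and transport, and fibroblast medians are highest in BBP library 3 and lowest in BBP library 2. The striatum median is 1.68 in BBP library 1.

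By role, the 3 BBP libraries lay above all corn oil libraries for the receptors and for the pericyte genes only. The receptor medians were 0.41, 0.21 and 0.09 in BBP libraries 1 to 3, against -0.15, 0.02 and 0.09 in corn oil libraries 1 to 3, with BBP library 3 (0.092) just above corn oil library 3 (0.087). The pericyte medians were 0.26, 0.26 and 0.16 in BBP libraries 1 to 3, against 0.05, -0.0017 and -0.01 in corn oil libraries 1 to 3. The medians of the other 3 roles overlapped between groups, and no role was tested as a list. Outside the 36, BBP medians also lay above all corn oil medians for endothelial transcription factors, leukocyte adhesion and basement membrane genes. The same was true of other barrier transporters and of the VEGF, angiopoietin and PDGF list. Medians overlapped for the Wnt, caveolae, other junction and other mural lists. Among the 36 genes, length moved with the values in BBP libraries 2 and 3. The 18 genes shorter than the median length of 4699 bases, as the FPKM values imply it, had medians of -0.14 and 0.06 in BBP libraries 2 and 3, and the 18 longer genes had 0.14 and 0.20. Spearman's rho between length and deviation was 0.37 and 0.28 over the 36 genes in these libraries, a description across genes. It was -0.11 in BBP library 1 and 0.04, -0.12 and -0.03 in corn oil libraries 1 to 3. Over all 20428 tested genes rho was -0.01, 0.06 and 0.18 in BBP libraries 1 to 3, against 0.05, 0.04 and -0.11 in corn oil libraries 1 to 3. The part of length in the results was not tested.

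The promoters of the 3 genes that had both an unadjusted p under 0.05 and separate groups, Flt1, Robo4 and Abcc9, are shown for reference, since no measurement of binding or chromatin was made. Each is the 250 bases before the RefSeq start (GRCm38.p6), written in the direction of transcription. Capitals mark the ETS core GGAAG, to which endothelial ETS factors can bind, the GC box GGGCGG and the TATA box TATAAA, each searched on both strands. The regions are chr5:147726012-147726261 (minus strand), chr9:37401722-37401971 (plus strand) and chr6:142702275-142702524 (minus strand). The deposited table starts Robo4 75 bases and Abcc9 41 bases further upstream than RefSeq.
Flt1: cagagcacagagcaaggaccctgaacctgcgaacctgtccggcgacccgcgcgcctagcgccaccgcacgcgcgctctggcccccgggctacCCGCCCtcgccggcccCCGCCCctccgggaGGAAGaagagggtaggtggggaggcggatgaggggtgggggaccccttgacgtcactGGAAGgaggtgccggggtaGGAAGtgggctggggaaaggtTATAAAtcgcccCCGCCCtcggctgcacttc
Robo4: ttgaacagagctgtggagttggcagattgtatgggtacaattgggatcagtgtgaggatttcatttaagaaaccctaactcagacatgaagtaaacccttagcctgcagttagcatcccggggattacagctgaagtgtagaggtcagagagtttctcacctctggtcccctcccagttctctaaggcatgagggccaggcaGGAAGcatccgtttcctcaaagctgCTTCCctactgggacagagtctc
Abcc9: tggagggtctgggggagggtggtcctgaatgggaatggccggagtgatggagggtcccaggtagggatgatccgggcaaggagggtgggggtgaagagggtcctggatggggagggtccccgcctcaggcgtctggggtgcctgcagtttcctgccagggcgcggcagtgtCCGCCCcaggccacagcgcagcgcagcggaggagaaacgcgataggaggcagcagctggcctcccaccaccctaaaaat

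The Flt1 window, at 70.4% G and C, held 3 ETS cores, 3 GC boxes and a TATA box. The Robo4 window held 2 ETS cores and neither of the other motifs, and the Abcc9 window held 1 GC box and no ETS core or TATA box. RefSeq promoters were found for 24 of the 36 genes, and 20 of these had a single start. Of those 20, 11 held an ETS core, 9 a GC box and 2 a TATA box, beside 64.1%, 32.7% and 12.4% of all 32851 promoters in the table. A match is a description of the letters, not a binding site.

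Other genes of the vascular unit, taken from 9 lists of ligands, regulators and neighbours, also leaned upward. Of 120 such genes 118 were tested and 90 (76.3%) were positive, the median being 0.11 on the log2 scale. In edgeR 0 passed an adjusted p of 0.05. At an unadjusted p under 0.05, 6 (5.08%) were higher, beside 1.98% of all tested genes, and 2 (1.69%) were lower, beside 1.37%. The endothelial transcription factors were positive for 13 of 14 genes and the caveolae genes for 7 of 7, with medians of 0.14 and 0.23. Genes of the Wnt signal that induces the barrier were positive for 8 of 14, with a median of 0.03.

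Among these genes, Cd34, a sialomucin of endothelial and progenitor cells, had the smallest p. It had 8.91, 5.92 and 6.55 FPKM in BBP libraries 1 to 3, against 5.40, 4.75 and 4.97 FPKM in corn oil libraries 1 to 3 (log2 fold change 0.52 ± 0.14, SE, unadjusted p = 0.00583, edgeR). Icam2, an endothelial adhesion molecule, had 1.598, 0.750 and 0.904 FPKM in BBP libraries 1 to 3, against 0.704, 0.548 and 0.588 FPKM in corn oil libraries 1 to 3. Klf4, a transcription factor of quiescent endothelium, had 1.23, 1.42 and 1.32 FPKM in BBP libraries 1 to 3, against 0.699, 0.823 and 1.03 FPKM in corn oil libraries 1 to 3. In all 3 genes the BBP values lay above the corn oil values.

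Lamc1, a laminin chain of the vascular basement membrane, and Ndufa4l2, a mitochondrial protein gene high in pericytes, also stood higher without overlap, with log2 fold changes of 0.30 ± 0.09 and 0.56 ± 0.22 (SE). Higher without overlap were 2 of 14 transcription factors, 2 of 12 basement membrane, 2 of 13 other junction and 2 of 6 tested leukocyte adhesion genes. So were 2 of 16 VEGF, angiopoietin and PDGF genes, 1 of 18 other barrier transporters and 1 of 18 other mural genes. The share over all tested genes was 4.4%. Lower without overlap were 1 Wnt and 1 other mural gene, beside 5.25%. Cavin1, a coat protein of caveolae, had 0.43 ± 0.17 (SE) with overlapping groups. Lower in BBP at an unadjusted p under 0.05 were Wnt7a, a neural ligand of the barrier programme, at 2.88, 2.60 and 3.23 FPKM in BBP libraries 1 to 3, against 3.86, 3.73 and 3.60 FPKM in corn oil libraries 1 to 3, and Cspg4. Cspg4 encodes NG2, which is made by pericytes and by oligodendrocyte precursors, and its log2 fold change was -0.28 ± 0.10 (SE). Of the genes with the smallest p on the remaining lists, Flt4 and Ptprb had 0.57 and 0.18, Lef1 0.62, Sox7 0.47, Tjp1 and Ctnnd1 0.14 and 0.20, Slc38a5 and Abcc4 0.41 and 0.29, Cavin3 0.29 and Hspg2 0.29, all at an unadjusted p above 0.05.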

How the data were processed

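RNA-seq of 6 hippocampus libraries was analysed, 3 per group as labelled. Per the submitters' processing notes, HISAT2 2.2.1 and StringTie 2.1.6 were among the tools and mm10 was the build, with no role given. Per the labels' protocols, libraries were strand-marked with dUTP and carried molecular identifiers. The deposited table gives estimated counts (whole numbers) and FPKM per gene and library, per the file headers. How the authors counted, strand included, is not given in the sources used here. The value 4 was more frequent among low counts than 3 or 5 (1007 to 1100 genes a library, against 595 to 650 and 326 to 392), so 1 fragment may stand for several counts.

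All genes were tested with edgeR 4.0.16 (R 4.3.3; TMM, filterByExpr, quasi-likelihood F test, Benjamini-Hochberg adjustment). SEs were derived from the log2 fold change and F. Alternatives were DESeq2 1.42.0, limma 3.58.1 on FPKM, other scalings and filters, a replicate block and fits without each library. Deviations use log2 CPM (prior count 2). Overlaps and shared windows were computed from GENCODE M21, where 31 of the 36 genes have identical coordinates, and promoters are RefSeq's. In each role the 2 genes with the smallest p, the most abundant gene and all genes with separate groups are given by library. The genes and lists were chosen with earlier results of these data known.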

Additional observations from a re-analysis of the deposited data

How the results depend on the processing

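None of the 36 genes was called in the 15 alternative fits. Over the whole table DESeq2 called 3 genes (Vcp-rs, Gm2004 and Gm2274), and edgeR called 0 to 3 when 1 library was left out (Scgb1a1, Commd1b and Gm45062 without BBP library 1, Zbtb12 without corn oil library 2). An unadjusted p under 0.05 was reached by 685 genes with all libraries and by 393 to 1530 when 1 was left out: 1475 and 1530 in the absence of BBP libraries 1 and 3, and 393 and 462 in the absence of corn oil libraries 1 and 3. DESeq2 gave 829 such genes, and limma gave 396 with the filter and 1068 without it. The median of the 36 genes kept its sign in all 15 fits, at 0.12 to 0.21 without 1 library (25 to 32 genes positive) and 0.14 with the replicate block (27 positive). In limma on FPKM it was lower, 0.096 and 0.099 with the filter (21 and 20 of 29 positive) and 0.080 without it (27 of 36). Same-numbered libraries of the 2 groups correlated in their deviations from their own group's mean at -0.08, 0.08 and -0.10. Differently numbered libraries correlated at -0.07 to 0.15. With 3 libraries a group, these values cannot tell whether the replicate numbers mark shared samples. Among the 36, the count at an unadjusted p under 0.05 was 3 to 7 without 1 library. It was 7 without BBP library 3 (5 higher in BBP, and Slco1a4 and Mfsd2a lower), beside 1530 of 21088 genes. It was 3, all higher, without corn oil library 1, beside 393 of 21155 genes. With the replicate block the count was 4, with 3 higher and Slco1a4 lower. In the limma fits it was 1 or 2 (Robo4, and Abcc9 without the filter on FPKM, which otherwise leaves 29 of the genes). Flt1 and Abcc9 stayed at p under 0.05 in every edgeR and DESeq2 fit.

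Of 526 single-gene values 496 kept their direction. Under limma Cldn5 was at -0.0084 (pseudocount 1, with or without the filter) and -0.013 (pseudocount 0.1), and Higd1b at -0.032 (0.1). With the replicate block Higd1b was at -0.028. Leaving out 1 library turned 16 genes, with ranges of -0.29 to 0.26 for Cldn5, -0.55 to 0.44 for Higd1b, -0.44 to 0.062 for Mfsd2a, -0.027 to 0.38 for Kdr, -0.073 to 0.32 for Emcn, -0.21 to 0.11 for Egfl7, -0.22 to 0.13 for Ly6a, -0.31 to 0.090 for Itm2a, -0.26 to 0.023 for Abcg2, -0.25 to 0.023 for Des, -0.067 to 0.19 for Ocln, -0.25 to 0.32 for Vwf, -0.020 to 0.37 for Slc2a1, -0.11 to 0.076 for Bsg, -0.25 to 0.51 for Tagln and -0.12 to 0.55 for Myh11. The cause was not tested. With 3 libraries a group, the median SE of 0.17 limits what could be called.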
